A study of Drosophila melanogaster with 3 samples.

Results

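The 48 proteasome subunit genes of Drosophila melanogaster were examined for binding of Vrille, a bZIP protein known as a repressor in the circadian clock, out of 13945 protein-coding genes on 6 chromosome arms. They were taken by symbol from the Ensembl annotation (names starting Prosalpha, Prosbeta, or Rpn or Rpt with a digit). The symbol rule uses no measured value, but it was set with earlier results of these data known. There were 14 genes of the core particle, 18 of the regulatory cap, and 16 paralogues whose symbols carry an R or a T and which are known as a group for expression in the testis. Binding came from chromatin immunoprecipitation and sequencing of whole white prepupae of pooled sex from a transgenic line that stably expressed vri fused at its C terminus to GFP, and the fusion protein was pulled down through its GFP. There was 1 group of 3 biological replicates and no second genotype, treatment or time, so values are described with their spread and no test between groups was possible. No control library was analysed here. The signal averages over all tissues of the animal, and binding confined to a few cells may not be seen.

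The proteasome is the protease that breaks down ubiquitin-tagged proteins. Its core is a barrel of outer alpha rings, which gate the entry, and inner beta rings, which hold the cutting sites. The cap on each end has a base of ATPases that unfold substrates and a lid that removes ubiquitin. Many larval tissues are broken down at metamorphosis, and in flies the bZIP factor CncC, with a small Maf partner, is known to activate proteasome genes.

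Vrille peaks were found at 7 of the 32 core and cap genes and at none of the 16 R and T paralogues. A gene was counted as bound when a peak of the authors' optimal list, made with the irreproducible discovery rate, had its summit within 1 kb of one of the gene's start sites. Of the 48 members 7 were bound (14.6%, exact 95% interval 6.07 to 27.8%), where 27.5% of all protein-coding genes were, a share within that interval. Without the paralogues 21.9% were bound (exact 95% interval 9.28 to 40.0%), and this interval too includes the share of all genes. The bound members were Prosalpha6 of the core and Rpn5, Rpn6, Rpn8, Rpn9, Rpn13 and Rpt1 of the cap. Intervals treat genes as independent and cover counting error only.

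Core and cap differed in count. In the core 1 of 14 genes was bound (7.14%, exact 95% interval 0.181 to 33.9%), namely 1 of the 7 alpha ring genes and 0 of the 7 beta ring genes. The unbound beta genes include all 3 that carry the cutting sites, Prosbeta1, Prosbeta2 and Prosbeta5. In the cap 6 of 18 genes were bound (33.3%, exact 95% interval 13.3 to 59.0%), so both intervals overlap and the cap's share lay near the 27.5% of all genes. Within the cap, bound genes were 1 of 6 base ATPases (Rpt1), 1 of 4 other base subunits (the ubiquitin receptor gene Rpn13) and 4 of the 8 lid genes taken by symbol. The lid subunit gene Sem1 falls outside the symbol rule and was not bound. Lid subunits Rpn5, Rpn6 and Rpn9 are scaffold proteins of one fold, and Rpn8 is the inactive partner of the deubiquitinase Rpn11. When each replicate's own list of its 9264 highest entries was used, the core share was 7.14% in every replicate and the cap share was 38.9%, 27.8% and 33.3% in replicates 1, 2 and 3. The share of all protein-coding genes in the same lists was 29.8%, 27.4% and 28.0%, near that of the cap. No difference between core and cap was tested.

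**Figure D1:**
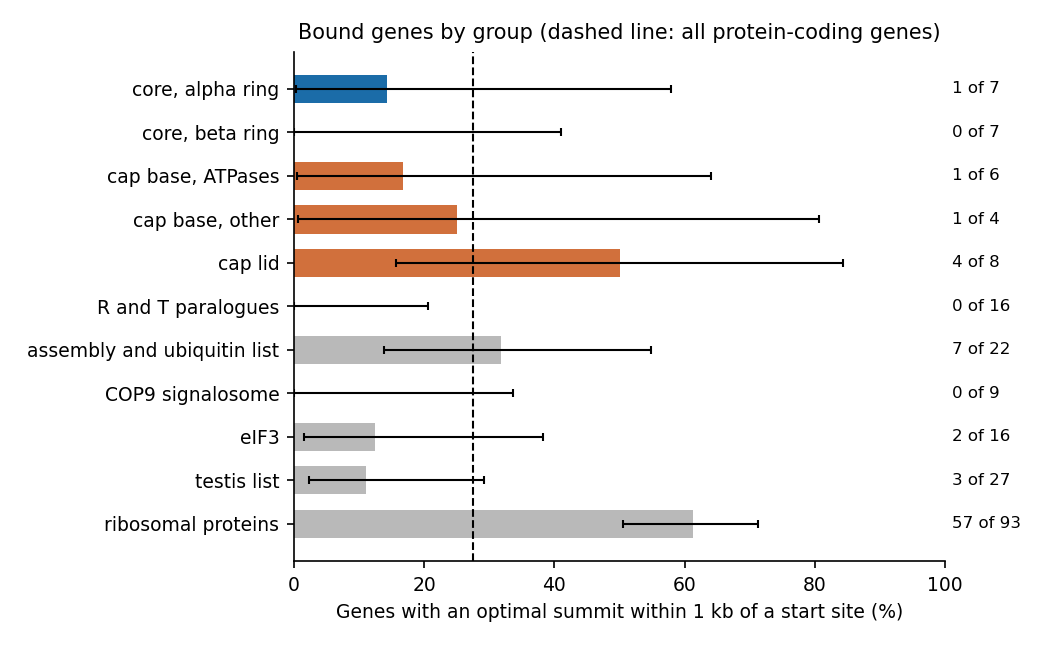
Bars give the percent of genes in each group that were bound, whiskers the exact 95% interval, and the numbers at the right the bound and annotated genes; the dashed line is the 27.5% of all protein-coding genes. The beta ring, the R and T paralogues and the COP9 signalosome have no bound gene, and the lid genes taken by symbol reach 50%.

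Among the bound members the highest mean values belonged to a ubiquitin receptor gene and a lid gene. Signal was divided in each replicate by the median of that replicate's entries at the optimal peaks, so a relative signal of 1 is a typical optimal peak. At Rpn13 it was 1.71 in replicate 1, 1.74 in replicate 2 and 1.10 in replicate 3 (mean 1.52 ± 0.359, SD, n = 3). At Rpn5 it was 1.58, 1.43 and 1.44 in the same order (1.48 ± 0.0858, n = 3), the smallest SD of the highest peaks of bound members with 3 values. Both peaks ranked close together in the pooled list, Rpn5 at 2087 and Rpn13 at 2090 of 9264, and their replicate values overlap.

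The only core gene, Prosalpha6, had 0.690, 1.56 and 0.758 (1.00 ± 0.484, n = 3), with replicate 2 standing above the other replicates. Rpn8 had 1.10, 0.659 and 0.984 (0.915 ± 0.229, n = 3). Rpn9 had 0.943, 1.10 and 0.616 (0.887 ± 0.248, n = 3). These 3 genes could not be ranked against each other, since the spread of each covers the means of the others. Rpn6 had 0.721 in replicate 1 and 0.793 in replicate 3 and no entry in replicate 2 (0.757 ± 0.0507, n = 2). Such a gap in at least 1 replicate occurred at 4.52% of all bound genes. Rpt1, an ATPase of the base, was the weakest with 0.583, 0.328 and 0.471 (0.461 ± 0.127, n = 3). The median over the 7 bound members was 0.915, beside 1.16 over all 3830 bound genes.

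**Figure D2:**
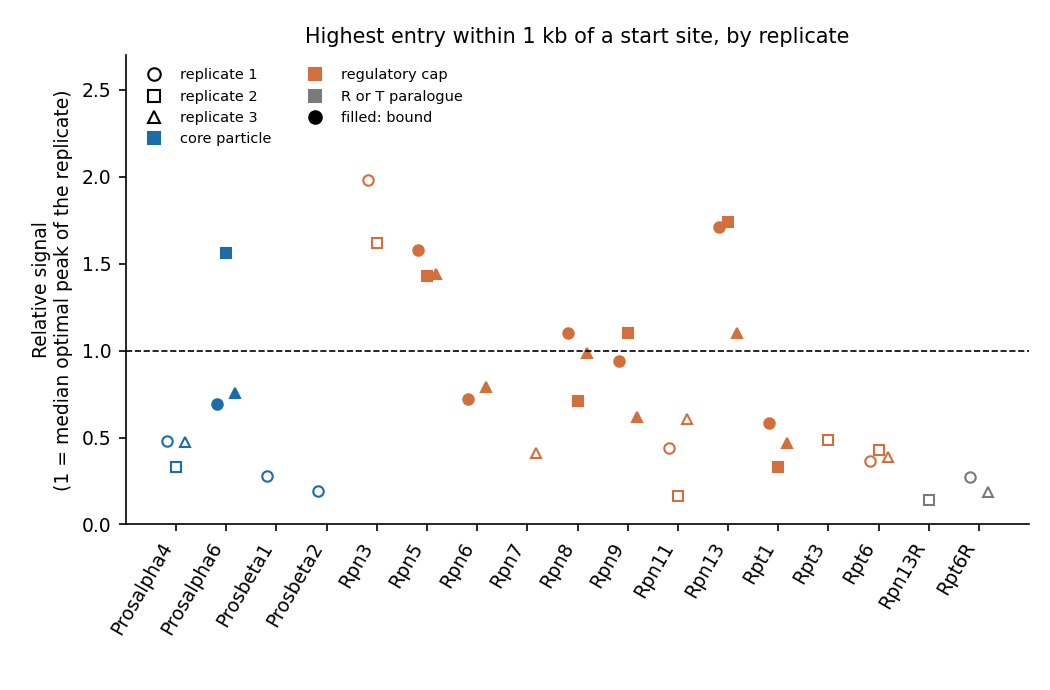
Points give, for each member with any entry within 1 kb of a start site, the relative signal of its highest entry in replicates 1, 2 and 3 (circles, squares, triangles), filled where the gene was bound; the dashed line at 1 is the median optimal peak. Rpn5 and Rpn13 lie above 1 in every replicate, Rpt1 lies below 0.6, and Rpn3 is high in 2 replicates and has no entry in replicate 3.

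Rpt1 lay just inside the threshold of the optimal list and Rpn11 and Rpt6 just outside. The Rpt1 peak ranked 9041 of 9264, with 102.6% of the lowest signal in the list. At Rpn11, which encodes the lid deubiquitinase, the pooled list held an entry with 84.9% of that signal (rank 10832), 83 bp upstream of the start site. Its relative signals were 0.441, 0.161 and 0.605 in replicates 1, 2 and 3. At the ATPase gene Rpt6 an entry 51 bp upstream had 83.6% (rank 10986), with relative signals of 0.366, 0.431 and 0.388. The replicate values of Rpt1 overlap those of both unbound genes. In distance, Prosbeta6 and Rpn11 lay just outside, with the nearest optimal summit 1117 bp and 1476 bp from the start site.

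At 5 of the 7 bound members the highest summit sat closer to the start site of a neighbouring gene, and 4 of these are described. The Prosalpha6 summit (2L, peak 10220627 to 10221066) was 504 bp upstream of Prosalpha6 and 105 bp inside Npc1a, which encodes a sterol transporter. At Rpn5 (3R, 5789035 to 5789281) the summit was 314 bp upstream of Rpn5 and 105 bp upstream of an internal start site of Hat1. Hat1 is a histone acetyltransferase gene. The Rpn13 summit (2R, 13960624 to 13960905) was 374 bp upstream of Rpn13 and 103 bp inside CtsL1, which encodes the lysosomal protease cathepsin L. The highest Rpn8 summit (2R, 24402293 to 24402487) lay in an Rpn8 intron, 596 bp upstream of an internal start site and 25 bp upstream of the kinase gene Slik. Across the genome the highest summit was nearest to another gene's start site at 902 of 3830 bound genes (23.6%).

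Peaks nearest to a proteasome start site were found at Rpn6, Rpn8 and Rpt1. The Rpn6 summit (2R, 14752113 to 14752552) was in an intron, 62 bp upstream of an internal Rpn6 start site and 188 bp from ave, which encodes a SAM-domain protein of Ras signalling. The Rpt1 summit (2R, 7653775 to 7654214) was 41 bp upstream of Rpt1 and within 1 kb of no other start site. Rpn8 had a second summit (2R, 24399402 to 24399841) 406 bp upstream of its first start site, with relative signals of 0.863, 0.709 and 0.740 (0.771 ± 0.0813, n = 3), also shared with no gene. When a summit was assigned to the closest start site alone, 3 of 48 members stayed bound (Rpn6, Rpn8 and Rpt1), 0 of them in the core, beside 22.1% of all genes. Rpn5 and Rpn13 each had a further summit, 108 bp and 585 bp upstream, inside the same replicate entries. These further summits were closer to a start site of Hat1 and of CtsL1, respectively.

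**Figure D3:**
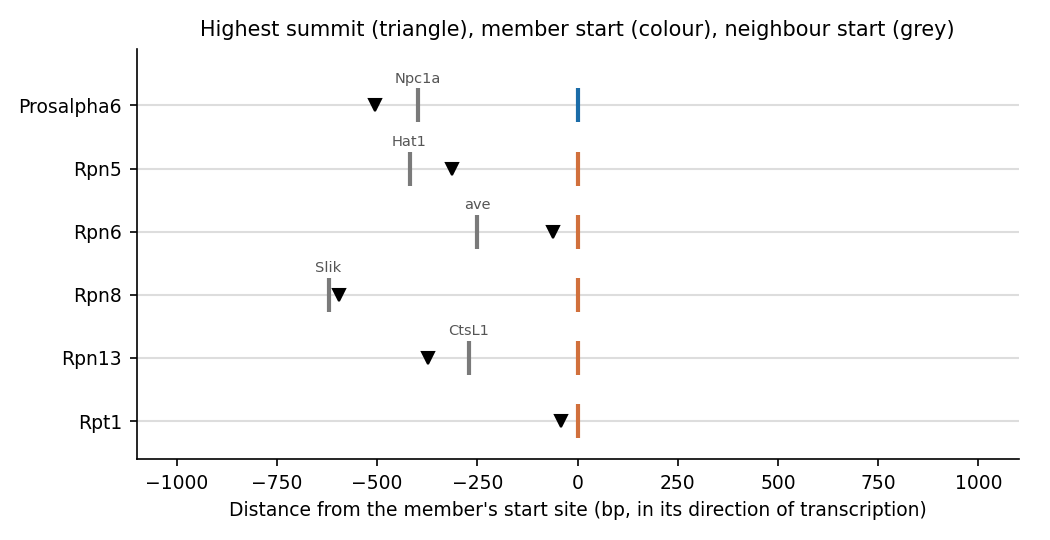
Each row is 1 of 6 bound members (Rpn9 is not drawn) with its start site at 0 (coloured bar), the start site of the gene that shares the summit (grey bar, named) and the highest summit (triangle), in bp along the member's direction of transcription. The triangle is closer to the grey bar in 4 rows, while Rpn6 and Rpt1 have it 62 and 41 bp from their own start.

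Shared promoters are common among the members. Another gene's start site lay within 1 kb for 26 of 48, beside 5985 of all 13945 genes. Of these 26 members 6 were bound, beside 35.5% of all genes with such a neighbour. Without the 4 paralogues among the 26, 6 of 22 were bound. Of the 22 members with no such neighbour 1 was bound (Rpt1), beside 21.4% of all such genes. These 22 were 12 paralogues, of which 0 were bound, 6 cap genes and 4 core genes. Of the 20 unbound members with a neighbour, 0 had a bound one. A summit that binds a neighbour can also lie within 1 kb of the member, so this count is partly set by the definition. The share over all unbound genes with a neighbour was not computed. Most members are short genes: lengths ran from 881 to 4500 bp, with a median of 1381 bp beside 2166 bp for all protein-coding genes. Members with 1 annotated start site were 36 of 48, beside 10246 of all 13945 genes, a similar share. Of these 36 genes 3 were bound (Prosalpha6, Rpn5 and Rpt1), where 19.9% of all genes with 1 start site were. The 36 include 14 paralogues, and the 3 bound genes are among the other 22.

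The calls of Rpt1 and Rpn6 were not met by every replicate. Rpt1 was among the 9264 highest entries of replicate 1 alone, and Rpn6 of replicates 1 and 3. When a peak had to overlap a top entry of both remaining replicates, 5 members were bound without replicate 1, 6 without replicate 2 and 5 without replicate 3. Rpt1 was lost each time and Rpn6 without replicate 1 or 3, while Prosalpha6, Rpn5, Rpn8, Rpn9 and Rpn13 were bound in each case.

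Most unbound core and cap genes had no entry in the replicate and pooled lists, which reach below the threshold with 30000 entries each. Of these 25 genes, 17 had no entry within 1 kb in any of these lists, where 63.5% of all unbound protein-coding genes had none. These 17 were 53.1% of the 32 core and cap genes, beside 46.1% of all protein-coding genes. They were 10 core genes (Prosalpha1, Prosalpha2, Prosalpha3, Prosalpha5, Prosalpha7, Prosbeta3, Prosbeta4, Prosbeta5, Prosbeta6 and Prosbeta7) and 7 cap genes (the scaffold genes Rpn1 and Rpn2, the ubiquitin receptor gene Rpn10, the lid gene Rpn12, and the ATPase genes Rpt2, Rpt4 and Rpt5). Pooled entries below the threshold occurred at 5: Rpn11 and Rpt6, described above, Prosalpha4, Rpn7 and Prosbeta2. Prosalpha4, of the alpha ring, had relative signals of 0.479, 0.331 and 0.473 in replicates 1, 2 and 3 (pooled rank 13540, 65.4% of the lowest optimal signal). The lid gene Rpn7 had 0.411 in replicate 3 alone (pooled rank 16305), and Prosbeta2 had 0.190 in replicate 1 alone (pooled rank 26936). Prosbeta1 had 0.276 in replicate 1 alone and Rpt3 had 0.485 in replicate 2 alone, without a pooled entry. Any pooled entry within 1 kb was present for 12 of the 32 core and cap genes (37.5%) and 1 of the 16 paralogues. Together these were 13 of 48 members (27.1%), beside 42.1% of all genes.

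Rpn3, a lid scaffold gene, was the exception among the unbound. Its start site had an entry of 1.98 in replicate 1 (rank 1376) and 1.62 in replicate 2 (rank 1908), above the values of Rpn5 in the same replicates, yet replicate 3 and the pooled list held none within 1 kb. The nearest optimal summit was 6577 bp away. Of 3934 genes found among the top entries of 2 or more replicates, 167 (4.25%) had no pooled entry in the same way. The cause was not tested.

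The R and T paralogues had no optimal peak within 1 kb. Of these 16 genes 0 were bound (exact 95% interval 0 to 20.6%), beside 27.5% of all protein-coding genes. In the own list of any replicate 0 were bound, beside 29.8%, 27.4% and 28.0% of all genes. Of the 16, 14 had 1 annotated start site, and 19.9% of all such genes were bound, a share within that interval. No other gene's start site lay within 1 kb of 12, beside 21.4% bound among all such genes. The paralogues copy 12 core or cap genes, and only Prosalpha6T and Rpn13R have a bound counterpart (Prosalpha6 and Rpn13). No entry of any list lay within 1 kb of 14 of them, beside 63.5% of all unbound genes. Rpt6R, the paralogue of the ATPase gene Rpt6, had 0.274 in replicate 1 and 0.184 in replicate 3, with a pooled entry 48 bp upstream at rank 16976. Rpn13R had 0.141 in replicate 2 alone. The nearest optimal summit was 3390 to 69902 bp from a paralogue's start site, with a median of 18737 bp. The median was 5402 bp for core genes, 3023 bp for cap genes and 5585 bp for all protein-coding genes, groups that include bound genes. Among unbound genes alone it was 5404 bp in the core, 4815 bp in the cap and 9996 bp over all protein-coding genes. A testis list had 27 annotated genes, among them meiotic arrest, sperm chromatin and sperm tail genes, and others such as bam and twe. Of these 27 genes, 3 were bound (11.1%, exact 95% interval 2.35 to 29.2%). That interval includes the 27.5% of all genes. The 3 were topi, can and Mst87F, with summits 756, 673 and 191 bp upstream, and the topi summit is shared with Whamy. The share of testis cells in the animals was not measured, so absence of binding there and dilution by other tissues cannot be told apart.

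**Figure D4:**
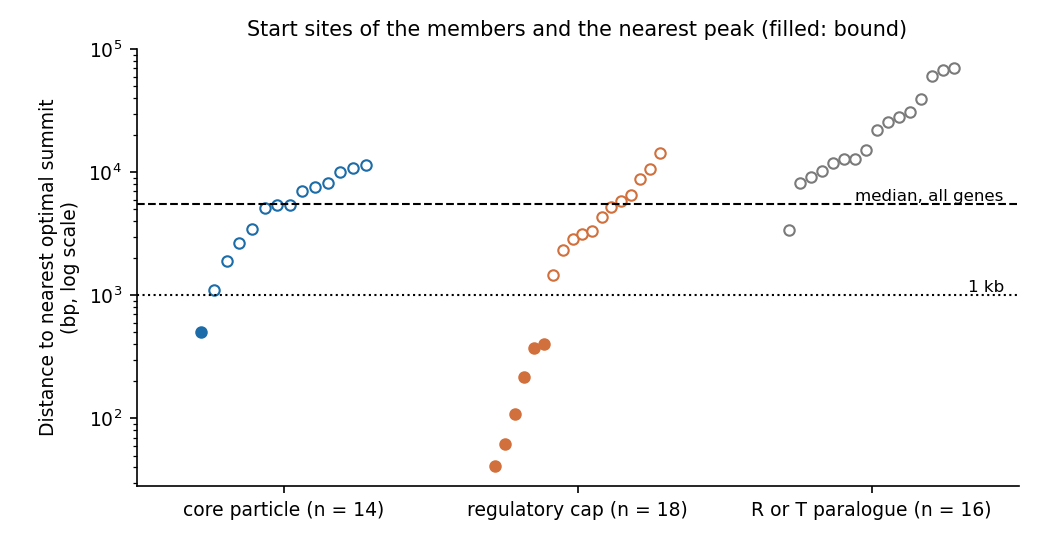
Points give the distance in bp, on a log axis, from each member's start sites to the nearest optimal summit, filled where the gene was bound; the dotted line is the 1 kb limit and the dashed line the median of all genes, 5585 bp. All 16 paralogues lie above the 1 kb line, and 15 of them lie above the dashed line. The dashed line includes bound genes, and the median of unbound genes alone, 9996 bp, is not drawn.

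Genes that assemble, regulate or feed the proteasome were bound at 7 of 22 (31.8%, exact 95% interval 13.9 to 54.9%), an interval that includes the 27.5% of all genes. In the own lists of replicates 1, 2 and 3 the count was 10, 10 and 6, beside 29.8%, 27.4% and 28.0% of all genes. The highest of the 7 was cnc itself, the gene of the CncC activator, with 3.69, 3.82 and 2.87 (3.46 ± 0.514, n = 3), ranked 387. Its value in each replicate was above those of all 7 bound subunit genes. Keap1, the inhibitor of CncC, had 2.59, 1.32 and 2.11 (2.01 ± 0.637, n = 3), with a summit 856 bp upstream that is shared with kuk. The gene maf-S was not bound and had no pooled entry within 1 kb. The polyubiquitin gene Ubi-p63E had 1.14 ± 0.254, the proteasome activator gene REG 1.10 ± 0.241 and the assembly factor gene Pomp 0.997 ± 0.477 (n = 3 each). Uba1, the ubiquitin-activating enzyme gene, had 0.724 ± 0.349 and the deubiquitinase gene Uch-L5 had 0.571 ± 0.0659 (n = 3 each). The REG summit was 738 bp upstream and is shared with sno. Those of Ubi-p63E and Uch-L5 are shared with Sc2 and Jarid2. PI31, Sem1, Usp14, Ubqn, Rad23, rngo, Pngl, TER94, Npl4, Ufd1, p47, Ubi-p5E, RpL40 and RpS27A were not bound. Of these, Sem1 is itself a lid subunit and is counted here because the symbol rule leaves it out.

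Other multi-subunit complexes were set beside these counts. The COP9 signalosome, built from the same folds as the lid, had 0 of 9 genes bound (exact 95% interval 0 to 33.6%). The translation initiation factor eIF3, another complex of this kind, had 2 of 16 (12.5%, exact 95% interval 1.55 to 38.3%), eIF3h and eIF3m. Both intervals include the 27.5% of all genes. Cytoplasmic ribosomal protein genes had 57 of 93 (61.3%, exact 95% interval 50.6 to 71.2%), a range that lies above the interval of the core and cap genes combined (7 of 32, 9.28 to 40.0%). Transcription was not measured in these animals, and no test of a difference between the complexes was made.

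The promoters of the core and cap genes, from 250 bp before to 50 bp after the first start site, were searched on both strands for 8 motifs. The DREF site TATCGATA, bound by the factor of many growth genes, was in 12 of 32 (37.5%) where 9.36% of all promoters held it, and in 0 of 16 paralogues. It was in 3 of the 7 bound members (Prosalpha6, Rpn9 and Rpn13) and in 9 of the 25 unbound core and cap genes, and in 0 of the 7 windows reaching 50 bp to each side of the members' highest summits, beside 1.52% of all 4552 promoter summits. The VP box, TTACGTAA or TTATGTAA, is the sequence Vrille is known to bind. It was in 3 of 32 (9.38%; Prosbeta2, Rpn10 and Rpn11) beside 2.60% of all promoters, and in none of the 7 bound members. At Rpn11 the box was 54 bp from the pooled summit described above. At Prosbeta2 it was 32 bp from a pooled entry of rank 27592, and at Rpn10 the nearest pooled summit was 2517 bp away. A CncC and Maf core TGACNNNGC was in 5 of 32 (15.6%; Prosalpha2, Prosbeta3, Rpn1, Rpn7 and Rpt6), beside 8.63% of all promoters, and in 0 of the 7 bound members. The Motif 1 core GGTCACAC was in 5 of 32, beside 7.70%.

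The other motifs were in few of the core and cap promoters. A C/EBP site (TTACGCAA, TTACGTAA, TTGCGCAA or TTGCGTAA, of which TTACGTAA is also a VP box) was in 1 of 32, Rpn5, beside 1.60% of all promoters, and lay 96 bp from its highest summit. The cyclic AMP response element TGACGTCA and the E box CACGTG were in 0 of 32, beside 0.437% and 4.20%. GAGAG was in 3 of 32 core and cap genes and in 6 of 16 paralogues, where 29.7% of all promoters held it. Around the members' summits, GAGAG occurred at Prosalpha6 and Rpn8, beside 18.7% of all 4552 promoter summits, and the Motif 1 core at Rpn9, beside 1.41%. A VP box was at 0 of the 7, beside 2.07%. A match describes letters in a window and not a site in use.

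**Figure D5:**
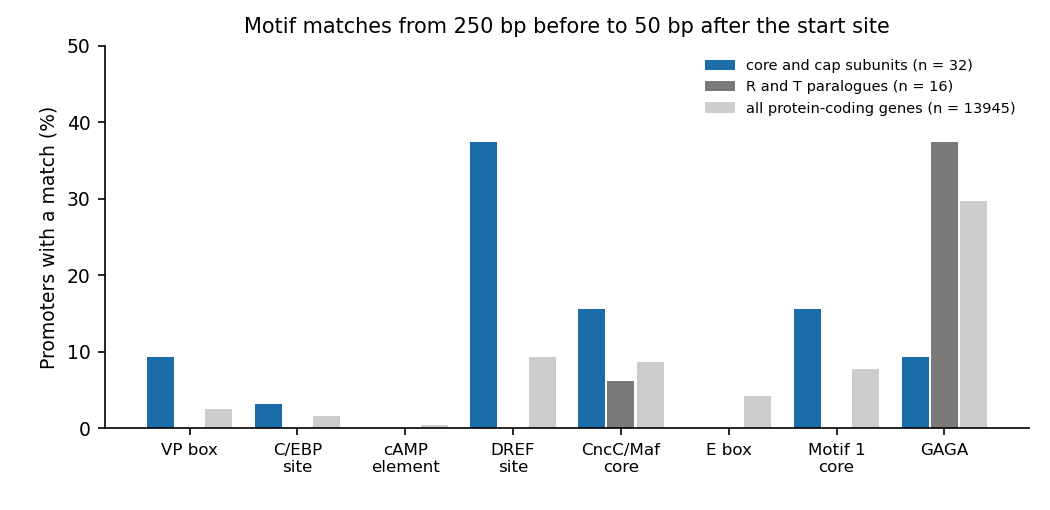
Bars give the percent of promoters, from 250 bp before to 50 bp after the start site, with at least 1 match to each motif for the 32 core and cap genes, the 16 R and T paralogues and all protein-coding genes. The DREF site stands at 37.5% in core and cap genes against 9.36% of all promoters and is absent from the paralogues.

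The sequences below show where these letters lie, and were chosen after the matches were seen. The first reaches 50 bp to each side of the highest Rpn5 summit, given as the plus strand of dm6, chr3R:5789129-5789229, and it holds none of the searched motifs. The others are the 150 bases before the start site, read 5′ to 3′ along the gene, from the RefSeq assembly of dm6. They lie at chr2L:10221201-10221350 (Prosalpha6, plus strand), chr3L:14999801-14999950 (Prosbeta2, plus strand), chr3L:16610419-16610568 (Prosbeta6, minus strand), chr3L:21536850-21536999 (Rpn10, plus strand) and chr2L:5059791-5059940 (Rpn11, minus strand). Capitals mark a DREF site (TATCGATA) or a VP box read on its other strand (TTACATAA).
Rpn5: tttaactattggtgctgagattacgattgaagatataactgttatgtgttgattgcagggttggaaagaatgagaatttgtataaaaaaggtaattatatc
Prosalpha6: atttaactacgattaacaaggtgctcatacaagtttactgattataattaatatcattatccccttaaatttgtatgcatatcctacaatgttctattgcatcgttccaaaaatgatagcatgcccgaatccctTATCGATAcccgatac
Prosbeta2: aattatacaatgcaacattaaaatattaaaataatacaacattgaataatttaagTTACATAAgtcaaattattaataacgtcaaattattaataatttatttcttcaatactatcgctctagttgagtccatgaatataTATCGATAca
Prosbeta6: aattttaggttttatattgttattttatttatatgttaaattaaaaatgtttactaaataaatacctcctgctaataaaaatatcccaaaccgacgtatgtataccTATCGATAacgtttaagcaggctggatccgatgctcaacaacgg
Rpn10: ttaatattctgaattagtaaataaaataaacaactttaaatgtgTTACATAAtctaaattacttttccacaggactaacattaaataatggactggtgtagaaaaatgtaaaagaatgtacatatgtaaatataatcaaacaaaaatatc
Rpn11: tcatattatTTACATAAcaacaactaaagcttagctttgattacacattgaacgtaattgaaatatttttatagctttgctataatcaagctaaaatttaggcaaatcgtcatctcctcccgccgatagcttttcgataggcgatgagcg

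Prosalpha6, bound by a summit closer to Npc1a, and Prosbeta6, unbound, both carry the DREF site, at 12 and 40 bp before the start site. Prosbeta2 carries a DREF site at 6 bp and a VP box at 91 bp and was not bound. The VP boxes of Rpn10 and Rpn11 lie 102 and 137 bp before the start site.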

How the data were processed

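Peak lists in narrowPeak format were deposited for 3 biological replicates, for the pooled reads and as an optimal list, in dm6. Per the labels, chromatin was sonicated to 200 to 800 bp. Per the depositors' note files, replicate and pooled lists are peaks and background given to the irreproducible discovery rate procedure, each made from the alignments and 1 further file, and the optimal list was made from them. Aligner, caller and rate threshold: not given in the sources used here. The deposited signal is the authors' value per peak and is not scaled between libraries, so it was divided by each replicate's median over optimal peaks (88.2, 50.8 and 84.9 in replicates 1 to 3). A replicate's value is its highest entry overlapping the optimal peak by at least 1 bp. All 9264 optimal peaks are the highest of the 30000 pooled entries. The lists hold no read counts, so depth is unknown.

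Start sites (19607) came from Ensembl release 115, and bases from the RefSeq assembly of the same build; all 48 members had the same coordinates in RefSeq. Coordinates are 1-based. The dm3 lists were not used here. Members and lists were chosen with earlier results of these data known. No enrichment test was made, since there is 1 group. Values in every replicate were set for the bound members, and the highest entry below the threshold for unbound core and cap genes. The code of the distance rule was checked on simulated summits at start sites far from any other start site. That check does not cover summits shared with a neighbour. Alternatives were other windows, nearest start sites, stronger peaks, single replicates and omitted replicates. Python 3.11.15, NumPy 2.4.6, pandas 2.3.3, SciPy 1.17.1 and matplotlib 3.10.9 were used. The position of the Rpn9 peak among its neighbours is not reported here.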

Additional observations from a re-analysis of the deposited data

How the results depend on the processing

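The count of 7 bound members was 6 with summits within 500 bp, 10 within 2 kb, 3 with nearest start sites alone, 4 among the stronger 50% of the peaks, and 6 to 8 in the replicates' own lists. The core count of 1 was 0 within 500 bp, 3 within 2 kb (with Prosalpha3 and Prosbeta6) and 0 with nearest start sites alone. The cap count of 6 was 3 with nearest start sites alone and 3 among the stronger 50%. The R and T paralogues had 0 bound genes under every alternative run. The share of all protein-coding genes was 23.0% within 500 bp, 33.2% within 2 kb and 18.2% among the stronger 50%. Leaving out 1 replicate gave 5 to 6 members, 1 core gene, 4 to 5 cap genes, 0 paralogues and 22.1 to 23.5% of all genes. The median relative signal of the bound members ranged from 0.779 to 1.02 without 1 replicate, against 1.15 to 1.18 over all bound genes. It was 1.24 among the stronger 50% of the peaks (1.58 over all bound genes), and as a percentile rank of 30000 entries, another scale, it was 82.9 (87.8 over all bound genes). With entries overlapping at least 50% of the peak, Rpn5 had 1.37 and Rpn6 0.815, each moved by more than its SD. With small groups of genes and unknown depth, shares of single roles are loosely set, and entries below the lists' lowest signal cannot be seen.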
